A study of Mus musculus with 47 samples.

Results

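The 10 genes Nfkbia, Nfkbib, Nfkbie, Nfkbiz, Nfkbid, Bcl3, Tnfaip3, Tnip1, Tnip3 and Cyld code for inhibitors of NF-kB and for feedback regulators of the signal that activates it. They were chosen by gene symbol, and all 10 were found among the 51912 genes of the bone marrow-derived macrophage (BMDM) tables. All 10 were also found in each of the 4 tables of lines labelled Raw264.7, a mouse macrophage-like cell line, which list 12771, 23772, 22599 and 22863 genes.

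The 12 RNA-seq libraries come from mouse BMDMs labelled WT or Zmynd8 cKO and from cell lines with changes in Zmynd8 or in p65. ZMYND8 is a protein that reads chromatin marks, and poly(A) selection is described for the BMDMs. BMDMs came from C57BL/6 WT mice (Zmynd8 flox/flox littermates without Cre) and from Zmynd8 cKO mice, in which Cre under the Lyz2 promoter of myeloid cells removes the floxed exons 6 and 7. Bone marrow cells were grown for 5 days in 20 ng/ml M-CSF, then left untreated (NT) or given 100 ng/ml LPS or 20 ng/ml IL-4 for 6 h. For each of the 6 BMDM conditions, 3 biological replicates were mixed into 1 library. The study describes its WT littermates as matched to the cKO mice in sex and age, and the age of the mice was not given. The 6 libraries labelled Raw264.7 came from lines made with a lentiviral CRISPR vector. The first set is Zmynd8 KO, Zmynd8 KO with Zmynd8 put back (WT Zmynd8) and Zmynd8 KO with the D/E-A mutant put back (D/E-A) with no treatment in their labels; the text of the study describes RNA-seq of WT Zmynd8 and D/E-A cells given LPS and does not say so for Zmynd8 KO. The second set is p65 KO, p65 KO with WT p65 (WT p65) and p65 KO with the K122R mutant of p65 (K122R), each labelled with LPS at a dose and time not given, and whether any line is a clone is not stated.

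NF-kB dimers are held inactive in resting macrophages by IκB proteins, which are degraded when a receptor such as TLR4 senses LPS. The freed dimers enter the nucleus and switch on inflammatory genes together with the genes of their own inhibitors, so that the response limits itself. Nuclear relatives of the IκB proteins then tune which target genes are transcribed, while A20, its ABIN partners and CYLD act upstream by binding or removing the ubiquitin chains that carry the receptor signal.

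BMDM levels are given as CPM, counts brought to the same library total, and the libraries held 26209321 (WT NT), 24902775 (WT LPS), 28386612 (WT IL-4), 22597408 (cKO NT), 23430558 (cKO LPS) and 26128553 (cKO IL-4) counts. The libraries labelled Raw264.7 are given as the deposited signal, which equals a whole number of reads times 1 factor per library within a tolerance of 0.02, except for Zmynd8 in Zmynd8 KO. Their reads numbered 21042628 (Zmynd8 KO), 18397028 (WT Zmynd8), 17930091 (D/E-A), 16653841 (K122R), 15665382 (WT p65) and 15127110 (p65 KO). Each pair table was scaled separately, so a signal is compared only within its table. A gene is said to have risen or fallen where the fold change, with 1 added to each value, was at least 1.2 between genotypes or lines or at least 2 between treatments, among genes whose mean over the pair reached 10 (counts in BMDMs, signal in the lines). All 10 genes passed that minimum in every comparison. With 1 library per condition there is no replicate check on any pair of libraries, and the 95% Clopper-Pearson limits in brackets cover counting error only. In bulk RNA, fewer cells of a type and less RNA per cell cannot be told apart.

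Before the 10 genes are described, the libraries were compared with their labels. Zmynd8 (ENSMUSG00000039671) stood at 87.1, 79.0 and 128 CPM in WT NT, LPS and IL-4 and at 81.5, 86.8 and 151 CPM in the same order in the libraries labelled cKO. Whole-gene Zmynd8 RNA was thus not called lower in the libraries labelled cKO (log2 fold change -0.10 in NT, 0.13 with LPS, 0.24 with IL-4), although in NT it was -0.42 on the deposited TPM, which is past 1.2-fold. Counts per gene do not separate exons 6 and 7, so the deletion itself cannot be read from these tables, and cKO below means the libraries so labelled. Lyz2, the lysozyme gene that carries Cre, was at 10950.5, 6902 and 8941 CPM in WT NT, LPS and IL-4 and at 7202, 2892 and 5245 CPM in cKO, so it fell in each treatment, by 0.60, 1.25 and 0.77 on the log2 scale. For the LPS label, Nos2, the inducible nitric oxide synthase, was at 7472 and 7391 CPM in the WT and cKO LPS libraries and at most 8.74 CPM in the other libraries.

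In the lines labelled Raw264.7, Zmynd8 signal was 116 in Zmynd8 KO against 506 in WT Zmynd8, a log2 fold change of -2.11, but this KO value is the single value above 0 of its library that is not a whole number of reads. It was 509 in D/E-A against 474 in WT Zmynd8 in the other table. Rela, which codes for p65, was at 778 in p65 KO against 1574 in WT p65, so the library labelled p65 KO kept Rela reads at a lower level. In K122R, Rela was at 5963 against 1571 in WT p65, a rise of 1.92 on the log2 scale, and Zmynd8 fell there from 1791 to 1091. In the tables the column used for WT p65 bears only WT and LPS in its heading, without p65 KO. Xist, the RNA that coats the inactive X chromosome of female cells, had 8062 reads in D/E-A, 8467 in WT Zmynd8 and 7109 in Zmynd8 KO but 0 in K122R, 2 in WT p65 and 3 in p65 KO. The Zmynd8 lines and the p65 lines, all labelled Raw264.7, therefore differ in a gene that marks the sex of the cells. In the BMDM libraries Xist was at 740, 246 and 1108 CPM in WT NT, LPS and IL-4 and at 323, 429 and 1057 CPM in cKO, so it also differed between the genotypes in NT and LPS, and its part in the results was not tested.

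All 7 macrophage markers were detected in every library, with summed levels of 7375, 6261 and 10096 CPM in WT NT, LPS and IL-4, and 7215, 6597 and 9697 CPM in cKO. In the lines their sum was 3727 CPM in D/E-A, 2200 in WT Zmynd8, 2975 in Zmynd8 KO, 1137 in K122R, 1120 in WT p65 and 1252 in p65 KO. Neutrophil markers (9 genes) were near 0 in the NT and LPS BMDM libraries, at 2.33 and 4.38 CPM in WT and 2.43 and 2.60 CPM in cKO. Elane was at 0 in each of these 4 libraries and Ly6g in all of them but WT NT. With IL-4 the neutrophil sum was 388 CPM in WT and 521 CPM in cKO, led by S100a9, and none of the 9 was at 0. In the Zmynd8 lines the neutrophil sum was 4469 CPM in D/E-A (Ngp highest at 1297), 10460 CPM in WT Zmynd8 (S100a9 highest at 3497) and 7066 CPM in Zmynd8 KO (S100a9 highest at 2057), with 0 of the 9 absent. In the p65 lines 4 of the 9 were listed, and their sum was 0.540 CPM in K122R, 0.447 in WT p65 and 0.595 in p65 KO. Summed B cell markers (5 genes) reached 193 CPM in D/E-A, 189 in WT Zmynd8 and 140 in Zmynd8 KO, led by Cd79b, against at most 8.83 CPM in the p65 lines. In BMDMs the B cell sum was at most 4.69 CPM in NT and LPS and was 11.1 and 17.2 CPM in the WT and cKO IL-4 libraries. Markers of the next lists were only partly listed in some tables of the lines. Dendritic cell markers (5 genes) summed to at most 9.77 CPM in BMDMs, 165 CPM in the Zmynd8 lines with Ccr7 highest, and 25.3 CPM in the p65 lines. T cell markers (4 genes) summed to at most 0.133 CPM in BMDMs and 8.59 CPM in the lines, fibroblast markers (4 genes) to at most 2.01 and 12.0 CPM, and erythroid markers (4 genes) to at most 0.843 and 19.9 CPM.

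Per transcript length, on the deposited TPM, Tnip3 (79.7 TPM) and Nfkbia (64.0 TPM) were the most abundant of the 10 in WT NT, and Nfkbiz (3.33 TPM) the least. After Tnip3 and Nfkbia came Tnfaip3 at 40.8, Nfkbib at 35.7, Tnip1 at 35.6, Bcl3 at 12.5, Cyld at 10.9, Nfkbid at 9.66 and Nfkbie at 8.32 TPM. Nfkbib and Tnip1 were thus next to each other with almost equal levels, and no replicate spread is available to order them. With LPS in WT the highest levels were Nfkbia at 347, Tnip3 at 278 and Tnip1 at 156 TPM, and with IL-4 they were Nfkbia at 251, Tnip3 at 177 and Tnip1 at 119 TPM. Nfkbid was lowest in WT LPS at 9.90 TPM, and Nfkbiz was lowest in WT IL-4 at 5.76 TPM. In cKO the leading genes were Tnip3 at 74.1 TPM in NT, Nfkbia at 445 TPM with LPS and Nfkbia at 392 TPM with IL-4. Summed over the 10 genes, the level was 301, 1181 and 776 TPM in WT NT, LPS and IL-4, and 269, 1398 and 1043 TPM in cKO.

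The cytoplasmic inhibitors were low in NT and high after LPS in both genotypes, with IL-4 between. Nfkbia (ENSMUSG00000021025, mm10 chr12:55489409-55492647) codes for IκBα, the inhibitor that is degraded and remade fastest. Its level was 58.1, 301 and 198 CPM in WT NT, LPS and IL-4 and 58.3, 371 and 319 CPM in cKO. Nfkbib (ENSMUSG00000030595, chr7:28758251-28766644), for IκBβ, was at 25.1, 93.3 and 45.1 CPM in WT and 32.8, 93.8 and 57.8 CPM in cKO. Nfkbie (ENSMUSG00000023947, chr17:45555700-45563169), for IκBε, was at 12.9, 84.4 and 51.3 CPM in WT and 12.3, 98.1 and 70.9 CPM in cKO. Nfkbia was level between the genotypes in NT and stood higher in cKO in the other conditions, while Nfkbib was nearly equal between genotypes after LPS.

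The nuclear IκB relatives did not share a pattern. Nfkbiz (ENSMUSG00000035356, chr16:55811377-55838641) codes for IκBζ, a nuclear cofactor needed for late inflammatory genes such as Il6. It was at 8.09, 38.5 and 13.3 CPM in WT NT, LPS and IL-4 and at 6.28, 55.4 and 37.7 CPM in cKO, so it was lowest in the NT libraries and highest with LPS in both genotypes. Nfkbid (ENSMUSG00000036931, chr7:30421728-30428748), for the nuclear protein IκBNS, was at 11.9, 12.9 and 17.6 CPM in WT and at 16.2, 12.0 and 18.5 CPM in cKO. Bcl3 (ENSMUSG00000053175, chr7:19808462-19822767), whose product binds p50 and p52 dimers in the nucleus, was at 13.8, 90.4 and 42.8 CPM in WT and at 15.2, 78.7 and 52.0 CPM in cKO. Nfkbid was the flattest of the 10 genes across the 6 libraries, its highest level being 1.55 times its lowest, and Nfkbiz had the widest range at 8.82 times.

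Of the ubiquitin regulators, Tnfaip3, Tnip1 and Tnip3 were higher after LPS than in NT in both genotypes. Tnfaip3 (ENSMUSG00000019850, chr10:19000910-19015410), for the ubiquitin-editing enzyme A20, was at 91.4, 297 and 115 CPM in WT NT, LPS and IL-4 and at 76.6, 397 and 196 CPM in cKO. Tnip1 (ENSMUSG00000020400, chr11:54910787-54962940), for the A20 partner ABIN1, was at 52.6, 263 and 188 CPM in WT and at 65.8, 295 and 239 CPM in cKO. Tnip3 (ENSMUSG00000044162, chr6:65590398-65634040), for the A20 partner ABIN3, was at 85.7, 302 and 181 CPM in WT and at 97.8, 298 and 213 CPM in cKO. Tnip3 had almost the same LPS level in both genotypes. Cyld (ENSMUSG00000036712, chr8:88697001-88751946), for a deubiquitinase that trims chains on signalling complexes, was at 38.0, 42.0 and 68.2 CPM in WT and at 24.7, 58.9 and 68.3 CPM in cKO. For Cyld the lowest library was cKO NT, and whether its LPS or its IL-4 libraries stood higher depended on the scaling.

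**Figure D1:**
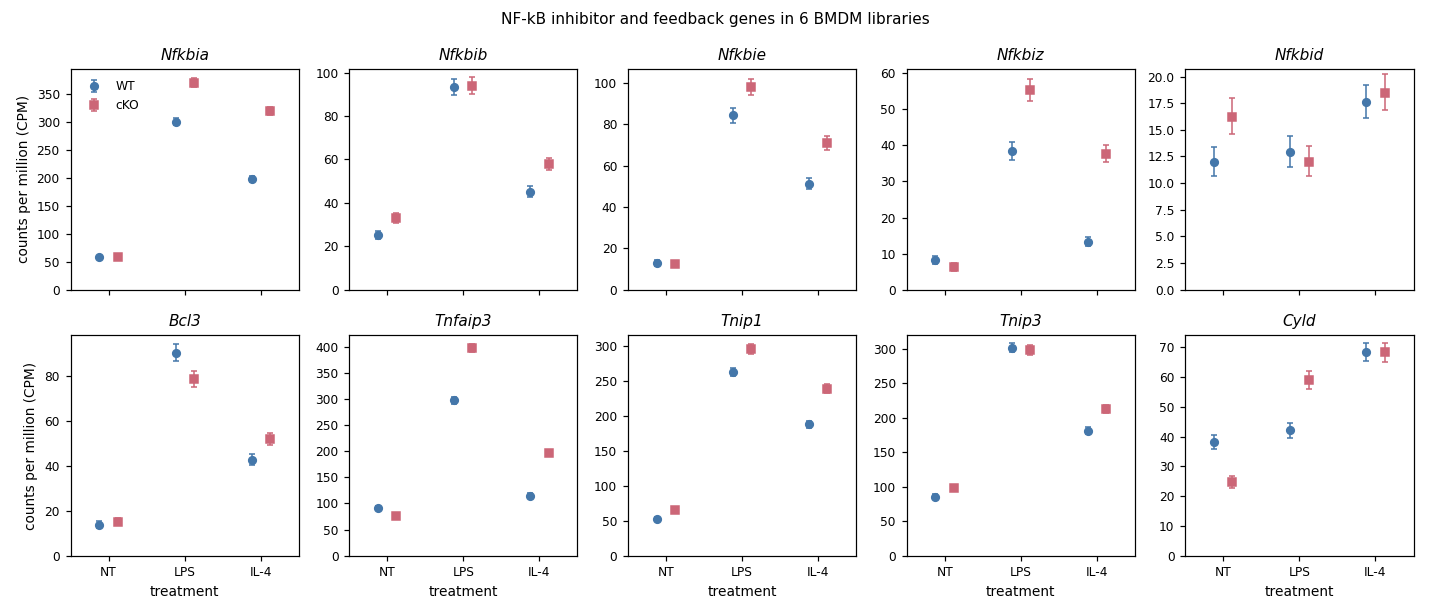
Level of each of the 10 genes (vertical axis, CPM, on a linear scale from 0) in the 6 BMDM libraries by treatment (horizontal axis), 1 point per library with 95% Clopper-Pearson limits for counting error. Nfkbiz runs from 6.28 CPM in cKO NT to 55.4 CPM in cKO LPS, while Nfkbid stays between 11.9 and 18.5 CPM.

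The comparison of LPS with NT asks how these genes respond to a bacterial signal. In WT, Bcl3 rose 6.18-fold, Nfkbie 6.13-fold, Nfkbia 5.11-fold and Tnip1 4.92-fold, while Nfkbid and Cyld were not called. Of the 10 genes, 8 rose and 0 fell, beside 10.5% of 12813 genes higher and 32.8% lower. Log2 fold changes were 2.63 for Bcl3 (2.48 to 2.78), 2.62 for Nfkbie (2.46 to 2.77), 2.35 for Nfkbia (2.28 to 2.43) and 2.30 for Tnip1 (2.21 to 2.38). They were 2.12 for Nfkbiz (1.92 to 2.32), 1.85 for Nfkbib (1.73 to 1.97), 1.80 for Tnip3 (1.74 to 1.87) and 1.69 for Tnfaip3 (1.63 to 1.76). Cyld had a log2 fold change of 0.14 (0.02 to 0.26) and Nfkbid of 0.10 (-0.11 to 0.31). The median over the 10 genes was 1.98, against -0.58 over all tested genes.

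In cKO, Nfkbiz rose 7.74-fold with LPS, Nfkbie 7.42-fold, Nfkbia 6.27-fold and Tnfaip3 5.13-fold. Cyld, which was not called in WT, rose 2.33-fold, from 24.7 to 58.9 CPM. Of the 10 genes, 9 rose and 0 fell, beside 13.2% of 12666 genes higher and 32.8% lower, and the median was 2.22 against -0.55 over all tested genes. Log2 fold changes were 2.95 for Nfkbiz (2.73 to 3.18), 2.89 for Nfkbie (2.72 to 3.06), 2.65 for Nfkbia (2.57 to 2.73) and 2.36 for Tnfaip3 (2.29 to 2.43). They were 2.30 for Bcl3, 2.15 for Tnip1, 1.60 for Tnip3, 1.49 for Nfkbib and 1.22 for Cyld. Nfkbid was at -0.41 (-0.62 to -0.20) and not called, and its sign turned to 0.11 under TMM and 0.19 under median ratio scaling. Whether the LPS response of any gene differs between the genotypes was not tested.

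The LPS libraries shift as a whole with the scaling, by 0.52 (TMM) and 0.58 (median ratio) in the log2 median of all genes in WT and by 0.47 and 0.54 in cKO, where deposited TPM shifts it by 0.28. Relative to the median of all genes under library totals, Nfkbia stood 2.94 higher in WT and 3.20 in cKO, Cyld 0.72 and 1.77, and Nfkbid 0.68 and 0.14. The count of 8 in WT was the same under TMM and median ratio, although all genes went from 1345 higher and 4203 lower (24.2% higher) to 2217 and 2219 (50.0%) and to 2371 and 2050 (53.6%). The count of 9 in cKO was also the same, with all genes going from 1668 and 4157 (28.6%) to 2515 and 2461 (50.5%) and to 2669 and 2258 (54.2%). The list of LPS-activated markers holds 5 symbols, of which Irg1 is an older symbol of Acod1, and its 4 genes were all found. They summed to 174 and 12328 CPM in WT NT and LPS and to 68.1 and 13228 CPM in cKO. Nos2 was the highest of them after LPS.

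The comparison of IL-4 with NT shares its NT libraries with the LPS comparison, so the lists of the 2 treatments are not set against each other. The sample titles number the IL-4 libraries apart from the NT and LPS libraries. The part of that numbering in the IL-4 results was not tested. In WT, Nfkbie rose 3.76-fold with IL-4, Tnip1 3.52-fold, Nfkbia 3.36-fold and Bcl3 2.96-fold, and Tnip3 rose 2.10-fold. Of the 10 genes, 5 rose and 0 fell, beside 10.0% of 13090 genes higher and 6.19% lower. Log2 fold changes were 1.91 for Nfkbie (1.75 to 2.07), 1.82 for Tnip1 (1.73 to 1.90), 1.75 for Nfkbia (1.67 to 1.83), 1.57 for Bcl3 (1.41 to 1.73) and 1.07 for Tnip3 (1.00 to 1.14). Those not called were Cyld at 0.83, Nfkbib at 0.82, Nfkbiz at 0.66, Nfkbid at 0.52 and Tnfaip3 at 0.33. The median over the 10 genes was 0.95, against 0.15 over all tested genes.

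In cKO, Nfkbia rose 5.41-fold with IL-4, Nfkbie 5.39-fold, Nfkbiz 5.31-fold and Tnip1 3.59-fold. Nfkbiz, Tnfaip3 and Cyld, which were not called in WT, rose here. Of the 10 genes, 8 rose and 0 fell, beside 15.0% of 12966 genes higher and 6.09% lower, and the median was 1.57 against 0.17. Log2 fold changes were 2.43 for Nfkbia (2.35 to 2.52), 2.43 for Nfkbie (2.26 to 2.60), 2.41 for Nfkbiz (2.18 to 2.64) and 1.85 for Tnip1 (1.76 to 1.93). They were 1.71 for Bcl3, 1.43 for Cyld, 1.34 for Tnfaip3 and 1.11 for Tnip3. Nfkbib at 0.80, which was called on deposited TPM at 1.07, and Nfkbid at 0.18 were not called, and Nfkbid turned to -0.04 under TMM and -0.02 under median ratio scaling. The difference between genotypes in the IL-4 response was not tested.

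Scaling moved the log2 median of all genes in the IL-4 comparison by -0.12 (TMM) and -0.16 (median ratio) in WT and by -0.20 and -0.18 in cKO, where deposited TPM moved it by 0.17. Under TMM and median ratio Tnip3 was no longer called, at 0.94 and 0.89 in WT and 0.89 and 0.91 in cKO, which left 4 and 7 genes. Relative to the all-gene median Nfkbia stood 1.60 higher in WT and 2.27 in cKO, and Nfkbiz 0.51 and 2.24. In WT all genes went from 1314 higher and 810 lower (61.9% higher) to 990 and 1013 (49.4%) under median ratio. In cKO they went from 1950 and 790 (71.2%) to 1407 and 1070 (56.8%) under TMM and to 1432 and 1037 (58.0%) under median ratio. The neutrophil sum given above rises in the IL-4 libraries too, and its part in the result was not tested.

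A model over all 6 BMDM libraries, with additive terms for genotype and treatment in edgeR, uses the libraries of the other genotype as the spread, with 2 residual degrees of freedom. With LPS, 9 of the 10 genes passed as higher and 0 as lower, beside 24.7% of 13726 genes higher and 24.7% lower. Nfkbie had a log2 fold change of 3.48 (SE 0.211, edgeR Benjamini-Hochberg adjusted p = 1.55e-04), higher in both genotypes. Nfkbia was at 3.16 (SE 0.248, edgeR adjusted p = 2.43e-04), and Nfkbiz at 3.27 (SE 0.419, edgeR adjusted p = 0.00118), each higher in both genotypes. Bcl3 was at 3.19, Tnip1 at 2.89, Tnfaip3 at 2.66, Tnip3 at 2.36 and Nfkbib at 2.35, all passing. Cyld passed at 1.34 (SE 0.267, edgeR adjusted p = 0.00690), while Nfkbid did not pass at 0.47 (SE 0.218, edgeR adjusted p = 0.115). The median of the 10 genes was 2.77, against -0.02 over all genes tested.

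With IL-4, 7 of the 10 genes passed in the same model as higher and 0 as lower, beside 10.2% of 13726 genes higher and 9.77% lower. Nfkbie led at a log2 fold change of 2.08 (SE 0.200, edgeR Benjamini-Hochberg adjusted p = 0.00115), followed by Nfkbia at 1.94 (SE 0.238, edgeR adjusted p = 0.00291), both higher in both genotypes. Tnip1 at 1.67, Bcl3 at 1.53 and Tnip3 at 0.93 passed as well. Nfkbiz at 1.49 (SE 0.406, edgeR adjusted p = 0.0464) and Cyld at 0.95 (SE 0.263, edgeR adjusted p = 0.0479) passed narrowly and were higher in both genotypes. Nfkbib at 0.65 (edgeR adjusted p = 0.0586), Tnfaip3 at 0.66 (edgeR adjusted p = 0.137) and Nfkbid at 0.19 (edgeR adjusted p = 0.568) did not pass. Nfkbib passed in DESeq2, with an adjusted p of 0.0463. The median of the 10 genes was 1.22, against 0.01 over all genes tested.

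The comparison of cKO with WT asks how these genes differ between the libraries so labelled. In untreated cells Nfkbib rose from 25.1 to 32.8 CPM, Nfkbid from 11.9 to 16.2 CPM and Tnip1 from 52.6 to 65.8 CPM, while Cyld fell from 38.0 to 24.7 CPM and Nfkbiz from 8.09 to 6.28 CPM, but the 3 rises were not called on deposited TPM, where Tnip1 turned to -0.02. Of the 10 genes, 3 rose and 2 fell, beside 25.0% of 12463 genes higher and 29.0% lower, which are shares of a similar size. Log2 fold changes were 0.41 for Nfkbid (0.21 to 0.62), 0.37 for Nfkbib (0.22 to 0.52), 0.32 for Tnip1 (0.21 to 0.42), -0.32 for Nfkbiz (-0.59 to -0.04) and -0.60 for Cyld (-0.75 to -0.46). Those not called were Tnip3 at 0.19, Bcl3 at 0.14, Nfkbia at 0.01 (-0.10 to 0.11), Nfkbie at -0.06 and Tnfaip3 at -0.25 (-0.34 to -0.16), with Nfkbia and Tnip3 turning to -0.10 on deposited TPM. Their median was 0.07, against -0.01 over all tested genes. On deposited TPM the log2 median of all genes moved by -0.19, all genes went from 3115 higher and 3614 lower (46.3% higher) to 1552 and 5491 (22.0%), and 0 of the 10 genes rose and 4 fell. Those 4 were Cyld, Nfkbiz, Tnfaip3 at -0.73 and Nfkbie at -0.29. In the same pair 5 of 7 macrophage markers were lower and 1 higher (median log2 -0.44), the summed level being kept near equal by Cd68 at 3466 against 2555 CPM, and 3 of 3 LPS-activated genes past the minimum were lower (median -0.99). Their part in the result was not tested.

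After LPS, Nfkbiz rose from 38.5 to 55.4 CPM, Cyld from 42.0 to 58.9 CPM, Tnfaip3 from 297 to 397 CPM and Nfkbia from 301 to 371 CPM in cKO. Among the 10, 4 rose and 0 fell, beside 22.6% of 12386 genes higher and 13.3% lower. On the log2 scale the values were 0.51 for Nfkbiz (0.40 to 0.63), 0.48 for Cyld (0.36 to 0.59), 0.42 for Tnfaip3 (0.37 to 0.46) and 0.30 for Nfkbia (0.26 to 0.34), and Nfkbia was not called under median ratio scaling, at 0.25. On deposited TPM 5 of the 10 were higher, Nfkbie being called at 0.30. The others were Nfkbie at 0.21, Tnip1 at 0.17, Nfkbib at 0.01, Tnip3 at -0.02, Nfkbid at -0.10 and Bcl3 at -0.20. Bcl3 was thus the lowest of the 10 in this comparison, at 78.7 against 90.4 CPM, and Nfkbib and Tnip3 changed sign with the scaling. The median of the 10 genes was 0.19, against 0.03 over all tested genes. In the same pair 2 of 4 LPS-activated genes were higher and 0 lower, Il12b at 27.6 against 8.67 CPM and Acod1 at 5427 against 4447 CPM, and 2 of 7 macrophage markers were higher and 1 lower. Their part in the result was not tested.

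After IL-4 the difference was widest for Nfkbiz, which rose 2.70-fold in cKO, from 13.3 to 37.7 CPM. Tnfaip3 rose 1.69-fold, from 115 to 196 CPM, and Nfkbia 1.61-fold, from 198 to 319 CPM. In this comparison, 7 rose and 0 fell, beside 17.3% of 13245 genes higher and 13.4% lower. The log2 values were 1.43 for Nfkbiz (1.27 to 1.60), 0.76 for Tnfaip3 (0.70 to 0.82), 0.69 for Nfkbia (0.64 to 0.74) and 0.46 for Nfkbie (0.36 to 0.56). They were 0.35 for Nfkbib (0.24 to 0.46), 0.35 for Tnip1 (0.29 to 0.40) and 0.28 for Bcl3 (0.17 to 0.39). Tnip3 at 0.23, Nfkbid at 0.07 and Cyld at 0.00 were not called, and the sign of Cyld turned with the scaling. Of all tested genes, 99.4% had a lower log2 fold change than Nfkbiz, 96.9% a lower value than Tnfaip3 and 96.3% a lower value than Nfkbia. The median of the 10 genes was 0.35, against 0.01 over all tested genes.

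The IL-4 count was 6 under TMM and on deposited TPM, since Bcl3 was at 0.22 and 0.17, and under TMM all genes went from 2295 higher and 1770 lower (56.5% higher) to 1783 and 2225 (44.5%). Markers moved in the same pair of libraries: LPS-activated macrophage genes (4 genes) summed to 264 CPM in WT IL-4 and 1179 CPM in cKO IL-4, with Acod1 highest at 260 and 1166 CPM. Nos2 of that list was at 1.23 and 7.16 CPM. Of 7 macrophage markers 1 was higher and 3 were lower. The neutrophil sum was 388 and 521 CPM, and of 8 neutrophil markers past the minimum 5 were higher and 0 lower. The part of all these markers in the result was not tested.

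Over the 3 treatments together, the edgeR model gave 0 of the 10 genes higher and 0 lower in cKO, beside 0.00% of 13726 genes in each direction. At an unadjusted p under 0.05 edgeR gave 417 genes in all and 0 of the 10. At an adjusted p under 0.05 DESeq2 gave 34 genes higher and 3 lower, with 0 of the 10. Nfkbiz had the highest log2 fold change, 0.57 (SE 0.324, edgeR Benjamini-Hochberg adjusted p = 0.999), lower in cKO in NT and higher with LPS and IL-4. Nfkbia was at 0.32 (SE 0.188), Tnfaip3 at 0.30 (SE 0.221) and Cyld at -0.05, and the median of the 10 genes was 0.22 against 0.00 over all genes. The model treats a genotype difference that varies with treatment as spread.

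**Figure D2:**
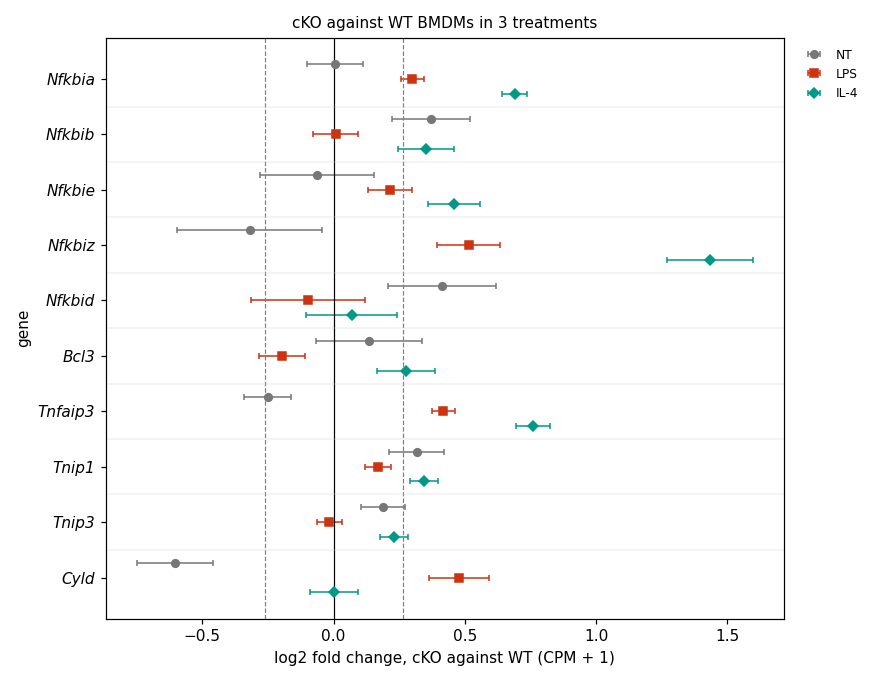
Log2 fold change of cKO against WT for the 10 genes (CPM plus 1) in NT, LPS and IL-4, as points with 95% Clopper-Pearson limits and dashed lines at a fold change of 1.2. Nfkbiz goes from -0.32 in NT to 1.43 with IL-4 and Cyld is at -0.60, 0.48 and 0.00, while the NT point of Tnip1, at 0.32, turns to -0.02 on deposited TPM.

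In the Zmynd8 lines the question is whether the D/E-A mutant acts as WT Zmynd8 does. Tnfaip3, the A20 gene, had a signal of 24403 in D/E-A and 9230 in WT Zmynd8, and Tnip3, the ABIN3 gene, 21541 and 8301. These 2 genes rose 2.64-fold and 2.59-fold, while Nfkbia fell 1.73-fold, from 38114 to 22058. From the list, 6 rose and 3 fell, beside 36.7% of 12771 genes higher and 35.9% lower. As log2 fold changes these are 1.40 for Tnfaip3 (1.37 to 1.44), 1.38 for Tnip3 (1.34 to 1.41) and -0.79 for Nfkbia (-0.81 to -0.76).

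Nuclear IκB genes went in different directions in D/E-A. Nfkbiz was at 6250 against 4279 (log2 0.55), Bcl3 at 3256 against 2183 (0.58) and Nfkbid at 695 against 984 (-0.50). Nfkbiz and Bcl3 thus rose and Nfkbid fell. Nfkbie rose from 2933 to 3972 (0.44), Cyld rose from 695 to 1004 (0.53), Nfkbib fell from 3993 to 3028 (-0.40), and Tnip1 at 9606 against 9166 (0.07) was not called. The median of the 10 genes was 0.48, against 0.02 over all tested genes. The D/E-A table lists 12771 genes, fewer than the others, and the fewest reads of a listed gene in WT Zmynd8 are 21. In the same pair neutrophil markers fell from 10460 CPM in WT Zmynd8 to 4469 CPM in D/E-A, and macrophage markers rose from 2200 to 3727 CPM. Of 3 erythroid markers 3 were lower (median log2 -1.28), and of 4 dendritic cell markers 3 were lower and 1 higher (-0.65). The part of these markers in the result was not tested.

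Zmynd8 KO was set against the same WT Zmynd8 library, so the D/E-A and KO comparisons share their control and are given side by side only. Tnfaip3 had a signal of 19051 in Zmynd8 KO and 9851 in WT Zmynd8, Tnip3 16331 and 8859, Bcl3 3760 and 2330, and Nfkbia 30325 and 40680. Tnfaip3 rose 1.93-fold, Tnip3 1.84-fold and Bcl3 1.61-fold, and Nfkbia fell 1.34-fold. Among the 10, 6 rose and 2 fell, beside 34.7% of 14485 genes higher and 28.3% lower. On the log2 scale the values were 0.95 for Tnfaip3 (0.92 to 0.99), 0.88 for Tnip3 (0.84 to 0.92), 0.69 for Bcl3 (0.62 to 0.77) and -0.42 for Nfkbia (-0.45 to -0.40).

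Nfkbid, at 706 against 1050, was the lowest of the 10 in Zmynd8 KO with a log2 fold change of -0.57 (-0.71 to -0.43). Cyld rose from 741 to 1031 (0.47), Nfkbiz from 4567 to 5984 (0.39) and Nfkbie from 3130 to 3885 (0.31), and Nfkbie was not called on library totals, at 0.24. Tnip1 at 10462 against 9783 (0.10) and Nfkbib at 4312 against 4262 (0.02) were not called, and the sign of Nfkbib turned with the scaling. Their median was 0.35, against 0.06 over all tested genes. LPS-activated macrophage genes (4 genes, Acod1 highest) summed to 8321 CPM in D/E-A, 5483 in Zmynd8 KO and 3984 in WT Zmynd8, with 2 of the 4 higher and 2 lower in each comparison. Those lower were Il12b, at 80.8, 97.2 and 152 CPM in the same order, and Marco, at 89.3, 80.6 and 160 CPM. In Zmynd8 KO against WT Zmynd8, 7 of 7 macrophage markers were higher (median log2 0.59). Lower were 5 of 9 neutrophil (-0.43), 4 of 5 B cell (-0.35) and 4 of 4 T cell markers (-3.24), with 1 B cell marker higher. The T cell markers were near the floor in both libraries, summing to 2.47 CPM in Zmynd8 KO and 8.59 CPM in WT Zmynd8. The part of all these markers in the results was not tested.

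In the p65 lines after LPS, the question is what the K122R change does to p65 target genes. Nfkbiz had a signal of 6882 in K122R and 4588 in WT p65, Tnfaip3 6855 and 4773, Nfkbib 2067 and 1450, and Nfkbia 18601 and 14371, so these 4 genes were higher in K122R, but Nfkbia was not called on library totals, at 0.23. Tnip3 fell from 4486 to 3651 and Cyld from 943 to 758. In this comparison, 4 rose and 2 fell, beside 26.4% of 13461 genes higher and 28.6% lower. The log2 values were 0.58 for Nfkbiz (0.53 to 0.64), 0.52 for Tnfaip3 (0.47 to 0.58), 0.51 for Nfkbib (0.41 to 0.61), 0.37 for Nfkbia (0.34 to 0.40), -0.30 for Tnip3 (-0.36 to -0.23) and -0.31 for Cyld (-0.45 to -0.17).

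Nfkbid at 1265 against 1079 (log2 0.23), Tnip1 at 4701 against 4031 (0.22), Nfkbie at 1746 against 1619 (0.11) and Bcl3 at 1190 against 1256 (-0.08) were not called in K122R, and Nfkbie turned to -0.03 on library totals. Over the list the median was 0.23, against -0.02 over all tested genes. Library totals moved the log2 median of all genes by -0.14 and all genes from 3553 higher and 3844 lower (48.0% higher) to 2448 and 5403 (31.2%), with 3 of the 10 genes higher and 2 lower. LPS-activated macrophage genes (3 found, all but Marco, with Acod1 highest) summed to 7111 CPM in K122R, 3676 in WT p65 and 2983 in p65 KO. The genes of that sum differed in direction, since Il12b was at 0.540 CPM in K122R against 3.32 in WT p65, and Nos2 was at 583, 218 and 255 CPM in K122R, WT p65 and p65 KO. Their part in the result, and that of the higher Rela level in K122R, was not tested.

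p65 KO was compared with the same WT p65 library, so the K122R and p65 KO comparisons share their control. Tnfaip3 had a signal of 2881 in p65 KO and 4783 in WT p65, Tnip1 2947 and 4039, and Nfkbie 2127 and 1622. Tnfaip3 fell 1.66-fold and Tnip1 1.37-fold, and Nfkbie rose 1.31-fold. From the list, 1 rose and 2 fell, beside 19.3% of 13451 genes higher and 19.4% lower. As log2 fold changes these are -0.73 for Tnfaip3 (-0.80 to -0.66), -0.45 for Tnip1 (-0.52 to -0.39) and 0.39 for Nfkbie (0.30 to 0.48), and 4.17% of all tested genes were lower than Tnfaip3.

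Nfkbia, at 14909 in p65 KO and 14401 in WT p65, had a log2 fold change of 0.05 (0.02 to 0.08) and was not called. Also not called were Nfkbiz at 5417 against 4598 (0.24), Nfkbid at 1215 against 1081 (0.17), Nfkbib at 1626 against 1453 (0.16), Cyld at 835 against 945 (-0.18), Bcl3 at 1251 against 1258 (-0.01) and Tnip3 at 4473 against 4496 (-0.01). Under TMM Nfkbiz was called at 0.26, and Bcl3 and Tnip3 changed sign. Their median was 0.02, against -0.02 over all tested genes. In the same pair 2 of 3 LPS-activated macrophage genes were lower and 0 higher (median log2 -0.34). Of 6 macrophage markers past the minimum 1 was higher and 0 lower, and of 3 fibroblast markers 2 were higher and 1 lower. The part of these markers in the result was not tested.

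**Figure D3:**
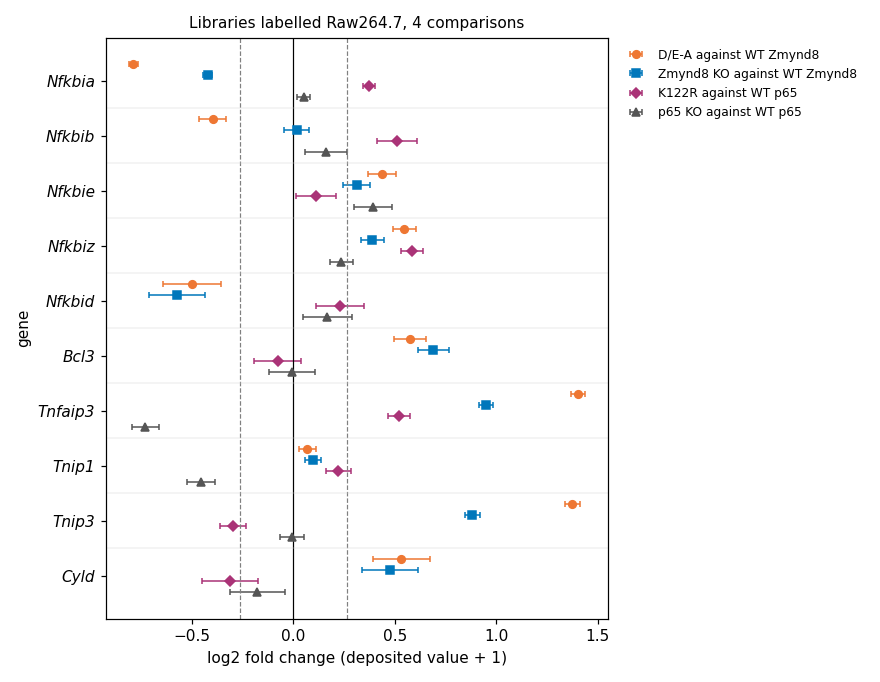
Log2 fold change of the 10 genes in the 4 comparisons of lines labelled Raw264.7 (deposited signal plus 1), as points with 95% Clopper-Pearson limits and dashed lines at a fold change of 1.2. Tnfaip3 is at 1.40 in D/E-A, 0.95 in Zmynd8 KO, 0.52 in K122R and -0.73 in p65 KO, while Nfkbib in Zmynd8 KO, at 0.02, turns sign with the scaling.

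Other genes of the pathway were taken from 4 lists, and their counts are to be read beside the shares of all genes in the same comparison. In cKO against WT these were 25.0% higher and 29.0% lower in NT, 22.6% and 13.3% with LPS, and 17.3% and 13.4% with IL-4. In the lines they were 36.7% and 35.9% in D/E-A, 34.7% and 28.3% in Zmynd8 KO, 26.4% and 28.6% in K122R, and 19.3% and 19.4% in p65 KO. For treatments they were 10.5% and 32.8% (WT) and 13.2% and 32.8% (cKO) with LPS, and 10.0% and 6.19% (WT) and 15.0% and 6.09% (cKO) with IL-4. For the NF-kB subunits (5 genes), 4 rose with IL-4 in each genotype, at medians of 2.17 in WT and 1.98 in cKO, and with LPS 2 rose in WT and 4 in cKO. These counts are on library totals. In the edgeR model over both genotypes, 5 of the 5 subunits passed as higher with LPS. The difference between genotypes was not tested. Nfkb1, for the p105 precursor of p50, went from 86.9 to 583 CPM with IL-4 in WT, a log2 fold change of 2.73. In cKO against WT, 1 subunit rose and 1 fell in NT (Relb 0.39, Rel -0.77), 3 rose with LPS and 1 with IL-4 (Nfkb2 0.43). In the lines 3 subunits rose in D/E-A and 1 in Zmynd8 KO. In K122R 3 rose and in p65 KO 3 fell, and in each case Rela, the gene altered in those lines, was among the 3.

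Of the 18 core signalling genes, 9 fell and 0 rose in cKO against WT in NT, 5 rose and 0 fell with LPS, and 2 rose and 1 fell with IL-4. Among them, Chuk, for a kinase of the IκB kinase complex, was at 35.1 against 56.1 CPM in NT (log2 -0.66) and at 32.9 against 25.1 CPM with LPS (0.38). Of the 22 other negative regulators, 5 rose and 8 fell in NT, 3 rose and 0 fell with LPS, and 4 rose and 1 fell with IL-4. Zc3h12a, for an RNase that degrades cytokine mRNA, rose in cKO with LPS (log2 0.36) and with IL-4 (0.29). In the lines, 13 of the 22 rose and 3 fell in D/E-A, 12 rose and 1 fell in Zmynd8 KO, 6 rose and 2 fell in K122R, and 5 rose and 4 fell in p65 KO. Core signalling genes rose and fell in the numbers 9 and 3 in D/E-A, 7 and 1 in Zmynd8 KO, 4 and 1 in K122R, and 1 and 2 in p65 KO.

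NF-kB target genes (25 listed) were counted in cKO against WT in each treatment. In NT, 4 rose and 9 fell of the 22 past the minimum (median log2 -0.07), with LPS 11 rose and 2 fell of 25 (0.20), and with IL-4 23 rose and 0 fell of 24 (1.37). Ccl2, a monocyte attractant, rose in IL-4 from 12.8 to 69.3 CPM (log2 2.35), and Cxcl10, an interferon-induced chemokine, from 22.2 to 97.8 CPM (2.09). The difference between treatments was not tested. The edgeR model over the 3 treatments passed 0 of the 25 targets in cKO. At an unadjusted edgeR p under 0.05 there were 8 of the 25, beside 417 of 13726 genes in all. With LPS against NT, 20 of 25 targets rose in each genotype and 0 fell, and with IL-4 against NT 10 rose and 5 fell of 22 in WT and 18 rose and 2 fell of 24 in cKO. In the lines 11 targets rose and 9 fell in D/E-A, 10 and 6 in Zmynd8 KO, 12 and 5 in K122R, and 5 and 9 in p65 KO.

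The pattern over the 6 BMDM libraries was compared among the 9933 genes whose mean count reached 100, by the root mean square difference of log2 CPM plus 1 after centring each gene. Within the 10 genes, Nfkbia and Nfkbie were closest (0.129), then Nfkbib and Tnip3 (0.143) and Nfkbia and Tnip1 (0.188), and Nfkbie and Nfkbid were farthest apart (1.22). The gene nearest to Nfkbia was Nfkbie (0.129) and the gene nearest to Nfkbie was Nfkbia. For Nfkbib they were Slc25a12 (0.109) and Pfkl (0.112), for Bcl3 Srgn (0.105), and for Tnfaip3 Sh3bp4 (0.137) and Pstpip2 (0.144). Tnip1 was nearest to Ripk2 (0.0943) and the subunit gene Nfkb2 (0.129), and Tnip3 to Traf2 (0.115). Nfkbid was nearest to Tjap1 (0.0396), and Cyld to Gm45322 (0.0680) and Birc2 (0.101). Nfkbiz had no gene as near, the nearest being Malt1 at 0.256.

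Among the 10 genes 3 lie on chromosome 7, namely Nfkbib, Nfkbid and Bcl3. In the GENCODE M21 annotation of mm10, Nfkbib shares 314 of its 2169 exon bases with Ccer2 and 42 with Sirt2 on the other strand, and Bcl3 shares 161 of 2475 with the antisense gene Gm16175. Ccer2 and Gm16175 had 0 counts in all 6 BMDM libraries, while Sirt2 had 2400 to 3068. The other 8 genes share no exon base with another gene, and whether reads were counted by strand is not stated.

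Since 8 or more of the genes rose with LPS in each genotype, their promoter windows from RefSeq (GRCm38.p6, the mm10 build, 250 bases before to 50 after each start) were searched on both strands for the κB consensus. A window was found for 9 of the 10 genes, all but Nfkbiz, and 8 of the 9 held a match, all but Nfkbib, beside 8803 of 32851 windows (26.8%) and 7933 of 27025 genes (29.4%) in all. Nfkbid and Cyld, which did not rise with LPS in WT, hold matches too, and a match is a description and not a binding site. The stretches printed are 1 match for each of the 8 genes, read along the strand of the gene, with the match in capitals and 10 bases on each side. They lie at chr12:55492657-55492686 for Nfkbia (minus strand), chr17:45555584-45555613 for Nfkbie (plus), chr7:30422170-30422199 for Nfkbid (plus) and chr7:19822734-19822763 for Bcl3 (minus). The others lie at chr10:19015403-19015432 for Tnfaip3 (minus), chr11:54962978-54963007 for Tnip1 (minus), chr6:65590334-65590363 for Tnip3 (plus) and chr8:88696863-88696892 for Cyld (plus).
Nfkbia: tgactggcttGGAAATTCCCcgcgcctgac
Nfkbie: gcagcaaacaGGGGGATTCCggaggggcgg
Nfkbid: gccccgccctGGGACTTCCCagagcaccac
Bcl3: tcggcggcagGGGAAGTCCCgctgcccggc
Tnfaip3: aatttccatcGGAAATCCCCctgttggcaa
Tnip1: tccatcatggGGGAATTCCCctcctgcctc
Tnip3: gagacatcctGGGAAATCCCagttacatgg
Cyld: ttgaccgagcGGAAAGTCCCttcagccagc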

How the data were processed

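RNA-seq was analysed in 12 of the 47 samples of the series, 6 BMDM libraries and 6 libraries labelled Raw264.7, with 1 library per condition, and the other 35 samples were not used. For BMDMs the authors used TopHat and the mouse transcriptome of mm10, their deposited tables hold estimated counts and TPM, and the counting tool is not stated. For the lines the deposited tables of the authors hold signal, with gene positions on mm10 and an aligner that is not stated. The design had planned for counts or deposited values, and the signal was used as deposited. The deposited fold changes and p-values, which hold the authors' own comparisons, were left aside, as were 2 columns of values for each sample that carry no label. Table entries that are not genes (431 in NT, 431 in LPS, 2 in IL-4) were left out.

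Estimated counts were rounded and divided by library totals (22597408 to 28386612 counts for BMDMs), and log2 ratios were taken after adding 1. The lines held 15127110 to 21042628 reads. Calls needed a mean of 10 or more and a fold of 1.2 (genotypes, lines) or 2 (treatments) and were made over all genes, with 95% Clopper-Pearson limits. The additive genotype and treatment model was fitted in edgeR 4.0.16 (TMM, quasi-likelihood, filterByExpr) across all genes with Benjamini-Hochberg adjustment at 0.05, and in DESeq2 1.42.0 as an alternative, in R 4.3.3. Other steps used Python 3.11.15, numpy 2.4.6, pandas 2.3.3, SciPy 1.17.1 and matplotlib 3.10.9. The calls were also run on simulated counts with known changes, as a check of the code that gives no replicate spread for the real libraries. The 10 genes, the pathway lists and the marker lists (macrophage, LPS-activated macrophage, neutrophil, dendritic cell, B cell, T cell, fibroblast, erythroid) were chosen with earlier results of these data known. Genes named besides the 10 are the genes targeted in the study (Zmynd8, Rela, Lyz2), at most the 3 of each list with the highest mean and the 2 with the largest absolute log2 fold change per comparison, the nearest-pattern genes and the most abundant markers. Xist, Nos2, Elane, Ly6g, Marco, Il12b in the Zmynd8 lines and the genes that overlap an exon were named outside that rule, after their values were seen. Alternatives were a pseudocount of 0.1, no filter, TMM, median ratio and library total scaling, deposited TPM, fold changes of 1.2 and 1.5, and an exact binomial test. TMM for the lines and fits without a treatment were added after seeing the data.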

Additional observations from a re-analysis of the deposited data

Results flagged for a closer look

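Nfkbiz differed in direction between treatments in cKO against WT, with log2 fold changes of -0.32 in NT, 0.51 with LPS and 1.43 with IL-4. Cyld also differed in direction, at -0.60 in NT and 0.48 with LPS, and was not called with IL-4, at 0.00166. Each value compares 1 library with 1 library, and the difference between treatments was not tested.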

How the results depend on the processing

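Of 84 counts of the 10 genes under an alternative, 76 stayed within 1.5 times the count reported and 8 moved. Each count adds the genes that rose and those that fell, so a change of direction does not show in it. In cKO against WT in NT, 3 higher and 2 lower became 0 and 4 on deposited TPM, which is among the 76. The counts of the cKO model, which were 0 in each setting, are among them too. A stricter fold change of 1.5 by itself shortens a count, and it took the genes called in cKO against WT from 5 to 1 in NT, from 4 to 0 with LPS and from 7 to 3 with IL-4. It took D/E-A from 9 to 3, Zmynd8 KO from 8 to 3, K122R from 6 to 0 and p65 KO from 3 to 1. A looser fold change of 1.2 took IL-4 against NT in WT from 5 to 10. In NT, Tnip1 in cKO against WT turned from 0.32 to -0.0222 on deposited TPM, and the cause was not tested. Counts of all genes (higher and lower) moved with the fold too: at 1.5 from 3115 and 3614 to 870 and 1361 in cKO against WT NT, to 562 and 264 with LPS and to 707 and 358 with IL-4. They were 2660 and 2887 in D/E-A, 2033 and 2145 in Zmynd8 KO, 1566 and 1671 in K122R and 914 and 807 in p65 KO. At a fold of 1.2 they were 2783 and 8078 (WT) and 3171 and 7658 (cKO) for LPS, and 5411 and 3024 (WT) and 5799 and 3398 (cKO) for IL-4. Without a filter they were 8999 and 8449 in Zmynd8 KO, 7118 and 8264 in K122R and 6443 and 6866 in p65 KO. With the binomial test they were 1340 and 1384 in p65 KO, 3843 and 2588 in Zmynd8 KO, and 2119 and 1085 in cKO against WT with LPS. With a pseudocount of 0.1 they were 1988 and 1102 for IL-4 against NT in WT. In the cKO model they were 31 and 1 without a filter, 34 and 3 in DESeq2, 5 and 0 without NT, 41 and 0 without LPS, and 9 and 5 without IL-4. Of 1192 single log2 fold changes under an alternative, 758 stayed within their limits, 433 moved beyond them and 1 changed its sign while called. Of 110 values from the additive models, 108 kept their side of the threshold, and 2 newly passed, both for Nfkbib with IL-4, with an adjusted p of 0.0463 in DESeq2 and 0.0358 in edgeR without the LPS libraries. No paired analysis was possible because each condition has 1 library and so no replicate numbers to pair, apart from the additive model, which compares genotypes within treatments and treatments within genotypes. The fits without a treatment have 4 libraries and 1 residual degree of freedom. Depth limits the low genes most: Nfkbiz had 142 counts in cKO NT, with limits of -0.59 to -0.04 on its log2 fold change.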
